A study of Rattus norvegicus with 18 samples.

Results

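Liver sinusoidal endothelial cells (LSEC) line the sinusoids, the capillaries of the liver. They differ from other capillary endothelium in their open pores, the lack of a basement membrane and a high rate of uptake by scavenger receptors, and they are known to lose these traits once removed from the liver. The first hours after plating were examined here by setting rat LSEC after 2 h in culture against LSEC whose RNA was extracted directly after isolation. The comparison takes 9 of the 18 arrays of the study, chosen by their titles: 4 arrays of cells at 2 h (arrays 4, 5, 6 and 7) and 5 arrays of fresh cells (arrays 13, 14, 15, 16 and 17), with 11018 genes tested. The other 9 arrays hold LSEC after 42 h in culture (4 arrays) and fresh microvascular endothelium of the lung (5 arrays). Only the 42 h arrays are used below, for the later level of genes described at 2 h.

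All cells compared here, and those at 42 h, were rat liver endothelium freed by enzymes, separated on a density gradient and sorted with magnetic beads. Cells at 2 h had in addition been plated on dishes coated with collagen. No genotype, strain, sex, age or drug treatment is given in the labels, and they do not say how many animals stand behind the arrays. The p-values therefore measure the spread between these arrays, which may be technical. The surface marker of the sort is not given in the sources used here. Biotin-labelled RNA was read on Affymetrix arrays with 1 probe set per gene, and all values are on the log2 scale as deposited, so that a difference of 1 unit is a 2-fold change. Means are given ± SD over 4 arrays at 2 h and 5 arrays of fresh cells, and a gene was called when its adjusted p in limma was under 0.05.

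Defining markers of sinusoidal endothelium were bright in both groups, and those of other cells were checked beside them. Lyve1, the hyaluronan receptor of sinusoidal and lymphatic endothelium, measured 12.64, 12.25, 12.67 and 12.11 at 2 h, against 12.99, 12.99, 12.90, 13.06 and 12.94 in fresh cells. Fcgr2b, the inhibitory Fc receptor of sinusoids, averaged 12.67 ± 0.20 at 2 h and 13.31 ± 0.05 in fresh cells. Both genes were among the brightest on either set of arrays. VE-cadherin (Cdh5), the adherens junction protein of all endothelium, averaged 10.39 ± 0.12 at 2 h and 11.68 ± 0.07 in fresh cells. The T cell receptor chain Cd3e was at or near background in both groups (6.29 ± 0.04 at 2 h and 6.005 ± 0.02 in fresh cells), as was the lung surfactant protein Sftpc (6.39 ± 0.12 at 2 h and 6.20 ± 0.07 in fresh cells), whose direction turned with the scaling. The Kupffer cell lectin Clec4f (7.60 ± 0.42 at 2 h and 10.68 ± 1.03 in fresh cells) and the hepatocyte gene Alb (10.46 ± 1.85 at 2 h and 12.18 ± 0.50 in fresh cells) were well above it in fresh cells, so that these preparations held RNA of other liver cells. Cd3e did not stand for all lymphocyte genes. Of 24 T, NK and B cell markers 19 were called higher at 2 h and 1 lower, 10 and 0 by 2-fold, as described below. Among all genes 43.1% were called higher and 33.0% lower. RNA of many cells was pooled on each array, so that fewer cells of a type and less RNA per cell cannot be told apart here or in any result below.

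The arrays themselves differed between the groups. The distance between the lower and upper quartile of all genes was 1.49 ± 0.064 at 2 h and 1.92 ± 0.021 in fresh cells (exact two-sided permutation test, p = 0.0159, the smallest that 4 against 5 arrays allow), while the array medians were nearly equal, at 7.10 to 7.12 at 2 h and 7.14 to 7.19 in fresh cells. The 24 bacterial poly-A control probe sets averaged 7.62 to 8.37 per array at 2 h and 5.72 to 5.74 in fresh cells. Their part in the results and the effect of culture cannot be told apart, because all arrays of a group share the state of these controls. The 3 prime minus 5 prime signal of Actb, a measure of RNA integrity and labelling, was 1.65 ± 0.027 at 2 h and 1.02 ± 0.149 in fresh cells (exact permutation test, p = 0.0159, adjusted over 2 such measures p = 0.0317), whereas that of Gapdh was 0.345 ± 0.060 at 2 h and 0.439 ± 0.228 in fresh cells (p = 0.667 in the same test and after adjustment). The part of these differences in the gene results was not tested.

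Of 11018 genes, 8387 were called (76.1%), 4746 higher (43.1%) and 3641 lower (33.0%) at 2 h, and the median difference over all genes was 0.08. The values of the groups did not overlap for 36.8% of genes on the higher side and for 29.5% on the lower side. Changes of at least 2-fold were fewer, with 626 genes higher (5.68%) and 795 lower (7.22%). The direction depended on the level of a gene. Among the 3673 dimmest genes 2600 were higher and 209 lower, but only 33 and 3 of them by 2-fold. Among an equal number of the brightest genes 961 were higher and 1945 lower, of which 409 and 644 by 2-fold. A list of 12 lung epithelial genes, which should be silent in liver, had 8 members called higher with a median of 0.28, none of them by 2-fold. Dim genes with a small difference therefore carry little weight below, and counts of at least 2-fold changes are given beside those of the gene lists. With the arrays brought to the same distribution by quantile normalization, 31.6% of genes were higher and 32.6% lower. Directions of gene groups were also checked after each array had been stretched to the same spread, called scale normalization here, under which 1158 genes were at least 2-fold higher and 317 lower. Counts of a list under it are given where its direction turned or its balance clearly changed. All counts of list members below stand against 43.1% of all genes called higher and 33.0% lower, 5.68% and 7.22% by 2-fold.

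**Figure D1:**
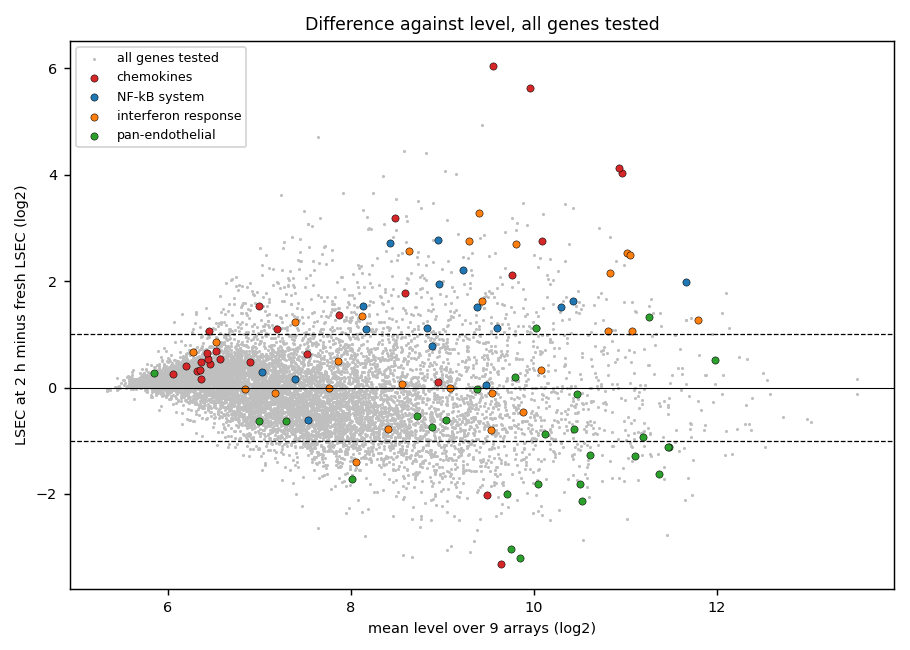
Difference between LSEC at 2 h and fresh LSEC (log2, vertical axis) against the mean log2 level over the 9 arrays (horizontal axis) for 11018 genes, grey points, with chemokines, NF-kB genes, interferon response genes and pan-endothelial genes in colour. Dim genes lie mostly just above 0, and the changes of at least 2-fold, outside the dashed lines, come mostly from the middle and bright genes.

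Chemokines held the largest single rises. These secreted proteins draw leukocytes to inflamed vessels, and those of the CXC class are induced by bacterial products, interleukin 1 and interferon in many cells. Of 28 chemokine genes 25 were higher and 2 lower, 12 and 2 of them by 2-fold, with a median difference of 0.64, against 43.1% and 33.0% of all genes called in the 2 directions. Cxcl11, a ligand of the receptor CXCR3, had the largest rise among the genes ranked. It measured 13.08, 12.74, 12.80 and 13.03 at 2 h, against 6.73, 7.10, 7.12, 6.70 and 6.67 in fresh cells. All arrays at 2 h were near the top of the scale and all fresh arrays near its lower end. The difference was 6.05 (SE 0.13, adjusted p = 5.56e-10), a 66.2-fold rise. Cxcl2, a neutrophil attractant, measured 13.19, 13.09, 13.07 and 13.001 at 2 h, against 7.62, 7.16, 7.98, 7.25 and 7.26 in fresh cells, 49.7-fold higher at 2 h (difference 5.63, SE 0.16, adjusted p = 2.67e-09). Its close relative Cxcl1 measured 13.24, 13.24, 13.24 and 13.09 at 2 h, against 8.93, 9.22, 9.34, 8.83 and 9.58 in fresh cells, 16.3-fold higher. Fresh cells already held a moderate level of Cxcl1, above the median of all genes, and the groups were far apart. Cxcl10, another CXCR3 ligand, measured 13.37, 12.998, 13.30 and 13.22 at 2 h, against 8.91, 9.58, 10.20, 7.83 and 8.94 in fresh cells, 17.5-fold higher at 2 h. These values at 2 h were close to the top of the scale, since the brightest gene of each array lay at 13.58 to 13.68, where differences are compressed.

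Ccl5, which attracts T cells and NK cells, averaged 10.25 ± 0.55 at 2 h and 7.06 ± 0.43 in fresh cells, a 9.15-fold difference (adjusted p = 3.05e-06). The third CXCR3 ligand, Cxcl9, and the monocyte attractant Ccl2 were looked up after the values were seen: Cxcl9 averaged 11.61 ± 0.43 at 2 h and 8.87 ± 0.96 in fresh cells and Ccl2 averaged 10.94 ± 0.47 at 2 h and 8.82 ± 0.32 in fresh cells. Both were called higher. The 2 chemokines that fell were Ccl6 and Ccl24. Ccl6, expressed by macrophages in rodents, averaged 7.80 ± 0.69 at 2 h and 11.11 ± 1.01 in fresh cells (difference -3.31, adjusted p = 1.35e-04), the largest fall among the genes ranked. Ccl24, an eosinophil attractant, averaged 8.37 ± 0.48 at 2 h and 10.39 ± 0.24 in fresh cells (difference -2.03). Ccl6 is itself a member of the macrophage marker list, which fell as well, as described below. The part of macrophages in the fall of these genes was not tested.

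The promoters of the 4 chemokines with the largest rises are shown because these genes rose together and carry the NF-kB motif close to the start. NF-kB is a family of transcription factors that are freed from inhibitors in the cytoplasm by inflammatory signals and bind such motifs in DNA. The sequences are the RefSeq windows of 300 bases on the rat build GRCr8, from 250 bases before to 50 after the start, 5′ to 3′ on the strand of the gene, with matches to the NF-kB consensus in capitals on either strand and, in Cxcl10, also the match to the interferon response element, written as GAAANNGAA.
Cxcl11, chr14:15973478-15973777, plus strand: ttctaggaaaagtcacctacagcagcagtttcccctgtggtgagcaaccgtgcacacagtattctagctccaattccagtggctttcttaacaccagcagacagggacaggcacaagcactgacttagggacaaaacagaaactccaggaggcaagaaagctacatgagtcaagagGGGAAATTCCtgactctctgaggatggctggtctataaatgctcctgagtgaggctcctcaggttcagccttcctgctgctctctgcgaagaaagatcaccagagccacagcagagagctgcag
Cxcl10, chr14:15988816-15989115, plus strand: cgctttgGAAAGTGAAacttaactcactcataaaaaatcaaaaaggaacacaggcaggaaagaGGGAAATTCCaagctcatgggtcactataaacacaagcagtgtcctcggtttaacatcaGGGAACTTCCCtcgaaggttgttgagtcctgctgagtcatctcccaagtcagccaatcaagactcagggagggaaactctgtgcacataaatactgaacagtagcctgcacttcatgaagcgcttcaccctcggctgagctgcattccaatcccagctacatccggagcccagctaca
Cxcl2, chr14:17467206-17467505, minus strand: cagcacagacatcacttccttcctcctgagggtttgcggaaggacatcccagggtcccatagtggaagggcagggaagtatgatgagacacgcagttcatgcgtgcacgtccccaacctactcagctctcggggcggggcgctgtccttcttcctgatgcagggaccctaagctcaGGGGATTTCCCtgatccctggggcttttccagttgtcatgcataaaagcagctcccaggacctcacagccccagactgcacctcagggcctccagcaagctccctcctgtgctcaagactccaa
Cxcl1, chr14:17479272-17479571, minus strand: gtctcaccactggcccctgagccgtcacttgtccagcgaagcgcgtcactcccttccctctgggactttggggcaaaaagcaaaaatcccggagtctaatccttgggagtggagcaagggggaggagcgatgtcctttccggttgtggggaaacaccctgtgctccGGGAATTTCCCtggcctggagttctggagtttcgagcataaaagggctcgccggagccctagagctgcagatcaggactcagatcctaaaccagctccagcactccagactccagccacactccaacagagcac
All 4 genes lie on chromosome 14. Counting the start base as 0, the capitals of Cxcl11 lie at -74 to -65, those of Cxcl2 at -74 to -64 and those of Cxcl1 at -84 to -74, where the runs of Cxcl2 and Cxcl1 each hold 2 overlapping matches. In Cxcl10 the interferon response element lies at -243 to -235, and the NF-kB matches lie at -187 to -178 and at -128 to -118. The consensus occurred in 36.4% of the 22 chemokine promoters in the table, in 7 of the 14 promoters of NF-kB genes and in 9.72% of the promoters of all 9060 genes tested that had one. Among all 33469 promoters of the table the share was 7.51%. Lists that moved both ways held it as often, with 45.0% of 20 antigen presentation promoters and 38.9% of 18 integrin promoters. It was 0.00% of 25 promoters of ribosome biogenesis genes, most of which rose. The lists were chosen with earlier results of these data known, so these shares describe the lists and not the response. A match describes the letters of the window and not a bound site.

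**Figure D2:**
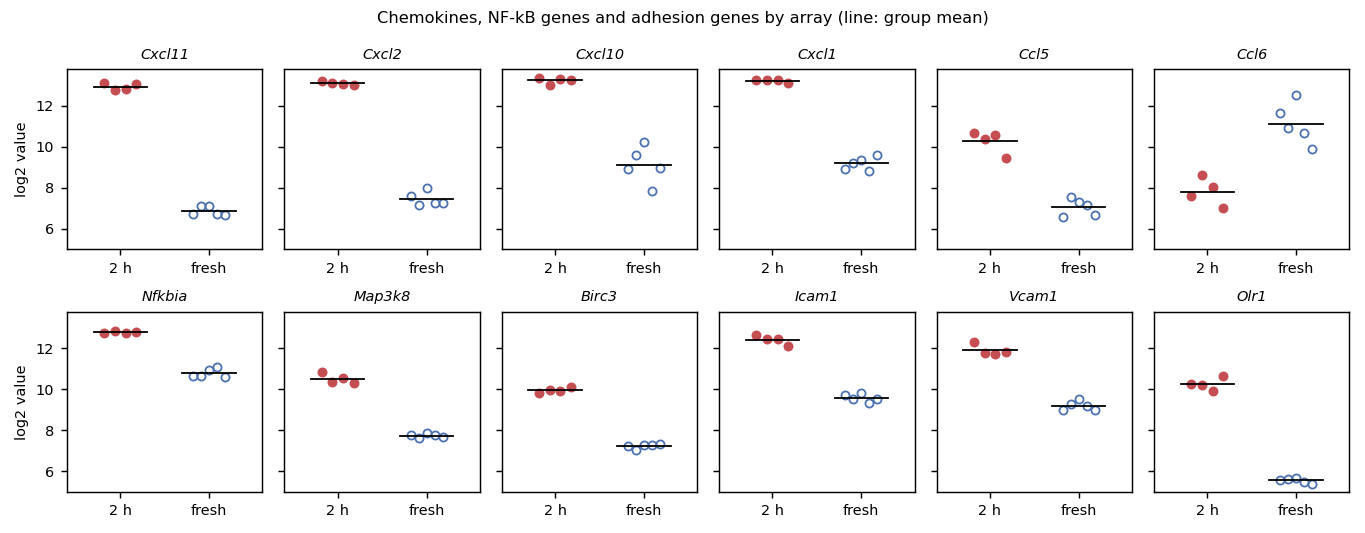
Log2 values of chemokines, of genes of the NF-kB system and of the activation and adhesion genes Icam1, Vcam1 and Olr1 on each array. LSEC at 2 h (4 arrays, filled) are to the left of fresh LSEC (5 arrays, open), with short lines at the group means. In each panel of a gene that rose, every array at 2 h lies above every fresh array.

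Of 13 chemokine receptor genes 12 were higher and 1 lower, but only 3 of the rises reached 2-fold. Ackr3, an atypical receptor that removes CXCL11 and CXCL12, measured 12.37, 12.50, 12.14 and 12.51 at 2 h, against 9.26, 9.01, 9.34, 9.84 and 9.49 in fresh cells, 7.94-fold higher at 2 h. Ccrl2, which binds the attractant chemerin, was 3.66-fold higher (difference 1.87, adjusted p = 2.99e-07). The atypical receptor Ackr4, which takes up CCL19 and CCL21, went the other way. It measured 9.23, 8.39, 9.38 and 8.02 at 2 h, against 11.15, 10.94, 11.02, 11.38 and 10.90 in fresh cells, 5.01-fold lower at 2 h (difference -2.32, SE 0.26, adjusted p = 1.82e-05). Cxcr3, the receptor of CXCL9, CXCL10 and CXCL11 that lymphocytes carry, was dim in both groups, at 7.18 ± 0.05 at 2 h and 6.26 ± 0.02 in fresh cells.

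Among the genes of the NF-kB system, both subunits and the inhibitors that the factor itself induces, 14 of 17 were higher and 1 lower, with 12 rises of at least 2-fold and a median of 1.52. The inhibitor Nfkbia measured 12.74, 12.80, 12.73 and 12.79 at 2 h, against 10.65, 10.64, 10.91, 11.10 and 10.59 in fresh cells, 3.98-fold higher at 2 h, and its relative Nfkbib was 3.83-fold higher. The kinase Map3k8, which acts upstream of the MAP kinases, averaged 10.50 ± 0.24 at 2 h and 7.72 ± 0.09 in fresh cells. Birc3, an inhibitor of apoptosis that acts at the TNF receptor, averaged 9.94 ± 0.12 at 2 h and 7.23 ± 0.10 in fresh cells, and Ripk1, the kinase of the same complex, averaged 10.45 ± 0.31 at 2 h and 8.24 ± 0.16 in fresh cells. Differences of these genes were 2.78, 2.72 and 2.20, each with no overlap between the groups. The kinase Ikbkb, which marks the inhibitors for degradation, was the member that fell (difference -0.61, adjusted p = 2.15e-05).

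Genes of the activated endothelial surface rose in part, with 11 of 20 higher and 4 lower, 9 and 3 by 2-fold. The counts were 15 and 2 after scale normalization, 10 and 0 by 2-fold. Olr1, the receptor of oxidised LDL, measured 10.27, 10.20, 9.92 and 10.63 at 2 h, against 5.57, 5.62, 5.67, 5.49 and 5.40 in fresh cells. It was at background in fresh cells, the level of the absent bacterial controls there, and was at least 16-fold higher at 2 h. The leukocyte adhesion molecule Icam1 measured 12.65, 12.42, 12.44 and 12.10 at 2 h, against 9.71, 9.53, 9.83, 9.31 and 9.52 in fresh cells, 7.08-fold higher (adjusted p = 6.58e-08). Vcam1, the ligand of a lymphocyte and monocyte integrin, measured 12.29, 11.74, 11.72 and 11.80 at 2 h, against 8.96, 9.29, 9.54, 9.17 and 8.998 in fresh cells, 6.49-fold higher (adjusted p = 2.07e-07). Both were already above the median of all genes in fresh cells. Genes of coagulation and clot removal rose too: tissue factor, F3, was at background in fresh cells and at least 2.76-fold higher at 2 h, and tissue plasminogen activator, Plat, was 3.98-fold higher. Vwf, which tethers platelets and is sparse in normal sinusoids, averaged 7.86 ± 0.15 at 2 h and 6.75 ± 0.18 in fresh cells, 2.16-fold higher. In contrast Icam2, the constitutive adhesion molecule of resting endothelium, averaged 9.49 ± 0.46 at 2 h and 11.31 ± 0.05 in fresh cells (difference -1.82), and Jam2 and the TNF receptor Tnfrsf1a also fell (differences -1.34 and -1.10), though Tnfrsf1a was not called after scale normalization.

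Cytokine genes were mostly dim. Of 21 measured, 12 were higher and 5 lower (3 without array 7), only 3 and 1 of them by 2-fold. Il6, a cytokine of the acute phase, was at background in fresh cells and averaged 7.83 ± 0.51 at 2 h, at least 2.98-fold higher. The neutrophil growth factor Csf3 was likewise at least 2.53-fold higher. Tnf averaged 8.04 ± 0.31 at 2 h and 7.20 ± 0.16 in fresh cells, 1.79-fold higher. Il1a, by contrast, was abundant in fresh cells and averaged 11.43 ± 0.66 at 2 h and 12.22 ± 0.24 in fresh cells, with overlapping groups (difference -0.79, adjusted p = 0.0183, not called with all 18 arrays in the fit or after scale normalization, where the sign turned). The growth factor of macrophages Csf1 fell (difference -1.53, adjusted p = 1.85e-05).

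Genes of the interferon response, most of them interferon-induced, formed another bright group. Products of many induced genes block viral replication or load antigen, and their promoters often hold the interferon response element. The list also holds the receptor chains Ifngr1, Ifngr2 and Ifnar1. Of 27 genes 14 were higher and 4 lower, 11 and 1 by 2-fold, with a median of 0.85. Under scale normalization 20 were higher and 2 lower, 14 and 1 by 2-fold. The antiviral gene Oasl measured 10.97, 11.22, 11.28 and 11.43 at 2 h, against 7.68, 8.21, 9.02, 7.19 and 7.61 in fresh cells, 9.76-fold higher (adjusted p = 5.64e-06). Rsad2, which encodes viperin, measured 12.43, 12.20, 12.45 and 12.67 at 2 h, against 9.70, 10.32, 11.001, 9.07 and 9.68 in fresh cells. Fresh arrays differed among themselves by several fold for Rsad2, and all were below the arrays at 2 h. Ifit3, which binds viral RNA in a complex, averaged 12.43 ± 0.07 at 2 h and 9.89 ± 0.83 in fresh cells, 5.79-fold higher (adjusted p = 8.60e-05). Its partner Ifit1 averaged 11.30 ± 0.32 at 2 h and 8.61 ± 2.09 in fresh cells, with groups that overlapped (difference 2.69, adjusted p = 0.0174). The GTPases Gbp2 and Igtp, typical targets of interferon gamma, were 6.74-fold and 5.89-fold higher. Not every member passed the test. Mx1 and Irf7, taken up after their values were seen, averaged 8.87 ± 0.88 at 2 h and 7.52 ± 1.12 in fresh cells for Mx1 and 11.40 ± 0.26 at 2 h and 10.35 ± 1.14 in fresh cells for Irf7, and neither passed the test (adjusted p = 0.052 and 0.0724). Members that fell included the interferon receptor chain Ifnar1 (difference -1.41), Ifi35 (difference -0.79) and the immunoproteasome subunit Psmb8 (difference -0.81, not called after scale normalization).

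The promoters of Ifit3 and Rsad2 are shown because both genes belong to this group and hold the element on the strand opposite to the gene, so that the capitals show its reverse complement. The windows are again RefSeq's on GRCr8, with the matches in capitals.
Ifit3, chr1:241527076-241527375, plus strand: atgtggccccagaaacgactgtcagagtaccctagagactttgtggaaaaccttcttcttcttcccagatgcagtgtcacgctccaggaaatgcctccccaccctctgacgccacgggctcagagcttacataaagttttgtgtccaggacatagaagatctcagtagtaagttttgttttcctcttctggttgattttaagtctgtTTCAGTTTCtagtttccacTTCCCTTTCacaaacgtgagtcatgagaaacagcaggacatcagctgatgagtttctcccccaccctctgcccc
Rsad2, chr6:48788071-48788370, minus strand: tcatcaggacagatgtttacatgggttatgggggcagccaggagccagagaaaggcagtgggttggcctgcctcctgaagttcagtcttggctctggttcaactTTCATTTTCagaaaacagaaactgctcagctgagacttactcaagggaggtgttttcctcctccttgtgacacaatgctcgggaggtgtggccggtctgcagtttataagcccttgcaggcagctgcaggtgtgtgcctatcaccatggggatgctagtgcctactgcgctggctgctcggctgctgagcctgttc
The element lies at -43 to -35 and at -24 to -16 in Ifit3 on chromosome 1, and at -146 to -138 in Rsad2 on chromosome 6. It occurred in 54.5% of the 22 promoters of the interferon list, 7.06% of those of all genes tested and 9.71% of the whole table. In the chemokine list the share was 9.09%. Among genes called at least 2-fold higher it was 8.98%, and 6.25% among those called at least 2-fold lower. The list was drawn from known interferon targets and receptor genes of the pathway, so this share describes the list and not the response.

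Shares of the motifs were also taken by direction over all genes with a promoter. Of 501 promoters of genes called at least 2-fold higher 10.8% held the NF-kB consensus, against 10.2% of 656 promoters of genes called at least 2-fold lower. The AP-1 site TGANTCA, bound by FOS and JUN proteins, occurred in 8.98% of the 501 and in 3.20% of the 656, with 5.47% of the promoters of all genes tested and 7.33% of the whole table. The cyclic AMP response element TGACGTCA occurred in 3.39% of the 501 and 2.29% of the 656, with 2.88% of all genes tested and 1.83% of the table. These shares are descriptions without a test.

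Immediate early genes encode factors that cells transcribe within minutes of a stimulus without making new protein. Many were already bright in fresh cells. Of 29 members 22 were higher and 4 lower at 2 h, 14 and 3 by 2-fold, with a median of 0.995. Under scale normalization 26 were higher and 3 lower, 24 and 2 by 2-fold. Myc, which drives growth and ribosome synthesis, measured 9.81, 10.74, 10.01 and 10.55 at 2 h, against 6.52, 6.33, 7.03, 6.86 and 6.36 in fresh cells, 12.6-fold higher (adjusted p = 2.43e-07). Fosl1, an AP-1 subunit, was at background in fresh cells and at least 8.88-fold higher, and the nuclear receptor Nr4a3 at least 5.81-fold higher. Klf6, Gadd45b and the stress factor Atf3 were 5.21-fold, 4.57-fold and 4.32-fold higher. Klf2 fell (difference -1.60, adjusted p = 1.49e-05), as did Klf10 (difference -1.90) and Jund (difference -1.28). Klf2 is induced by laminar flow in endothelium.

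Regulators that switch growth factor and G protein signals off rose in the same hours, 14 of 24 higher and 3 lower, with 7 and 2 by 2-fold. Errfi1, an inhibitor of the EGF receptor, measured 11.76, 11.96, 11.88 and 11.65 at 2 h, against 8.17, 7.56, 8.85, 9.17 and 7.94 in fresh cells, 11.1-fold higher. Rgs1, which ends signals of chemokine receptors, was 7.94-fold higher, and the Ras pathway inhibitor Spry1 was 5.43-fold higher. The phosphatases Dusp2 and Dusp6 were 4.55-fold and 3.03-fold higher. Socs2 and Rgs3 fell (differences -1.16 and -1.39). Hbegf, a ligand of the EGF receptor from the matrix list, measured 11.36, 10.42, 10.76 and 10.03 at 2 h, against 7.57, 7.23, 7.05, 7.21 and 7.28 in fresh cells, 10.4-fold higher. An inhibitor and a ligand of the EGF receptor were both higher on every array at 2 h.

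Genes of the oxidative stress response linked to the factor NRF2 held some of the largest rises. The list also holds Nfe2l2, the gene of NRF2, and Keap1, so it is not a list of targets alone. Of 24 genes 13 were higher and 6 lower, 9 and 3 by 2-fold. The counts were 15 and 3 after scale normalization, 14 and 1 by 2-fold. Akr1b8, an aldo-keto reductase, measured 11.05, 13.27, 11.62 and 12.76 at 2 h, against 6.98, 7.11, 6.79, 6.92 and 8.44 in fresh cells, 30.4-fold higher (difference 4.93, SE 0.47, adjusted p = 6.28e-06). The quinone reductase Nqo1 measured 10.55, 12.12, 10.86 and 12.01 at 2 h, against 7.35, 7.22, 7.18, 7.64 and 7.44 in fresh cells, 16.2-fold higher. Both had no overlap between groups by a wide margin. Gclc, the catalytic subunit of the first enzyme of glutathione synthesis, was 9.31-fold higher, and the thioredoxin reductase Txnrd1 7.25-fold higher. The mitochondrial superoxide dismutase Sod2, which is also a target of NF-kB, was 10.4-fold higher. Haem oxygenase Hmox1 averaged 11.91 ± 0.33 at 2 h and 10.49 ± 0.35 in fresh cells, 2.69-fold higher, and was the only called member of the macrophage list that rose. Gpx4, the peroxidase of membrane lipids, fell (difference -1.71), as did Gpx3 with overlapping groups (difference -1.70, not called after scale normalization) and Gsr, which was at background at 2 h and at least 1.94-fold lower. The core of the antioxidant response element, TGACNNNGC, occurred on either strand in 22.7% of the 22 promoters of the list, in 14.3% of those of all genes tested and in 12.1% of the whole table.

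Tiparp, an ADP-ribosyltransferase that is a target and inhibitor of the aryl hydrocarbon receptor, measured 11.35, 11.13, 11.15 and 11.53 at 2 h, against 7.15, 7.17, 7.19, 7.30 and 7.33 in fresh cells, 16.7-fold higher (adjusted p = 1.06e-09). Other targets of that receptor among the 8 genes of its list were dim. Cyp1b1, an oxidase of hydrocarbons and steroids, averaged 7.39 ± 0.43 at 2 h and 6.39 ± 0.07 in fresh cells. The receptor gene Ahr itself fell (difference -1.35, adjusted p = 8.43e-05). In all 5 of 8 members of the list were higher and 2 lower, with 1 in each direction by 2-fold.

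Of the genes of amino acid shortage and endoplasmic reticulum stress 17 of 22 were higher and 1 lower, 9 and 0 by 2-fold, with a median of 0.72. The factor Cebpb averaged 11.26 ± 0.24 at 2 h and 9.32 ± 0.45 in fresh cells, 3.83-fold higher. Ddit3, which encodes CHOP, averaged 10.53 ± 0.20 at 2 h and 8.76 ± 0.19 in fresh cells, 3.4-fold higher, and the phosphatase subunit Ppp1r15a, which restarts translation, was 2.91-fold higher. These 3 genes were already bright in fresh cells. Of 26 chaperones 13 were higher and 7 lower, 5 and 4 by 2-fold. After scale normalization 20 were higher and 4 lower, 14 and 1 by 2-fold. The cytosolic chaperone Hsph1 was 4.1-fold higher, and Dnajb9, a chaperone of the reticulum, 2.91-fold higher. The reticulum proteins Calr, Canx and Pdia4 went the other way (differences -1.65, -1.47 and -1.62).

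Genes for the making of ribosomes in the nucleolus rose together, 21 of 29 higher and 1 lower, 9 and 0 by 2-fold, with a median of 0.61 (2 lower without array 5). The counts were 24 and 1 after quantile normalization. Nop58, a core protein of the particles that methylate ribosomal RNA, measured 10.57, 11.09, 10.87 and 10.99 at 2 h, against 8.39, 8.31, 8.38, 8.60 and 8.37 in fresh cells, 5.55-fold higher. Taf1d, a part of the RNA polymerase I factor, was 5.82-fold higher, and the nucleolar GTPase Gnl3 was 3.59-fold higher. The E-box CACGTG, to which MYC binds, occurred in 5 of the 25 promoters of this list. The share was 8.74% for all genes tested and 6.42% for the whole table. It was 10.4% for genes called at least 2-fold higher and 9.60% for those at least 2-fold lower. Other lists also held it often, with 26.1% of 23 promoters of lysosomal genes. These shares are descriptions without a test. Azin1, which promotes the synthesis of polyamines, was 4-fold higher.

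Regulators of messenger RNA decay were higher in 9 of 19 cases and lower in 4, close to the 43.1% and not above the 33.0% of all genes, with 6 and 0 by 2-fold. Under scale normalization 14 were higher and 1 lower, 8 and 0 by 2-fold. Noct, a circadian phosphatase that was once described as a deadenylase, measured 11.71, 10.90, 11.38 and 11.08 at 2 h, against 6.77, 6.72, 6.63, 7.07 and 7.12 in fresh cells, 21.2-fold higher (adjusted p = 1.93e-08). Zc3h12a, a nuclease that degrades cytokine messages, was 4.92-fold higher. Genes of the circadian clock were higher in 9 of 13 cases and lower in 2, 4 and 0 by 2-fold. The repressors Nfil3, Cry1 and Bhlhe40 were 3.68-fold, 2.54-fold and 2.36-fold higher, and Bmal1, the activator of the loop, fell (difference -0.67, adjusted p = 1.47e-04). The time of day of isolation is not given in the labels.

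Further single genes had rises of the same size. Sphk1, a kinase that makes the lipid mediator sphingosine 1-phosphate, measured 11.28, 10.95, 11.02 and 10.93 at 2 h, against 6.64, 6.66, 6.53, 6.61 and 6.60 in fresh cells, 21.7-fold higher. Sgpp1, a phosphatase that degrades the same mediator, measured 7.21, 7.36, 7.61 and 7.23 at 2 h, against 10.47, 10.47, 10.05, 10.54 and 10.50 in fresh cells, 8.28-fold lower. A receptor of the mediator on endothelium, S1pr1, averaged 12.004 ± 0.23 at 2 h and 10.68 ± 0.18 in fresh cells, 2.51-fold higher. Sphk1 and S1pr1 were thus higher at 2 h and Sgpp1 lower, each without overlap between the groups. Sphk1 and Sgpp1 were named for the size of their changes, and the pathway was not counted as a list. Ptgs2, the inducible cyclooxygenase of prostaglandin synthesis, measured 8.86, 8.95, 9.86 and 9.31 at 2 h, against 5.56, 5.55, 5.58, 5.69 and 5.78 in fresh cells, at least 7.95-fold higher. Of its neighbours in the pathway, the prostaglandin receptor Ptger4 was at least 2.68-fold higher and the phospholipase Pla2g4a fell (difference -1.18). Gfpt2, an enzyme of the hexosamine pathway, was 11-fold higher, the cAMP-responsive repressor Crem 11.4-fold, and Litaf, a factor induced by bacterial lipopolysaccharide, 10.9-fold. Tmem252 and Gpr15lg were 11.7-fold and 12.6-fold higher.

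**Figure D3:**
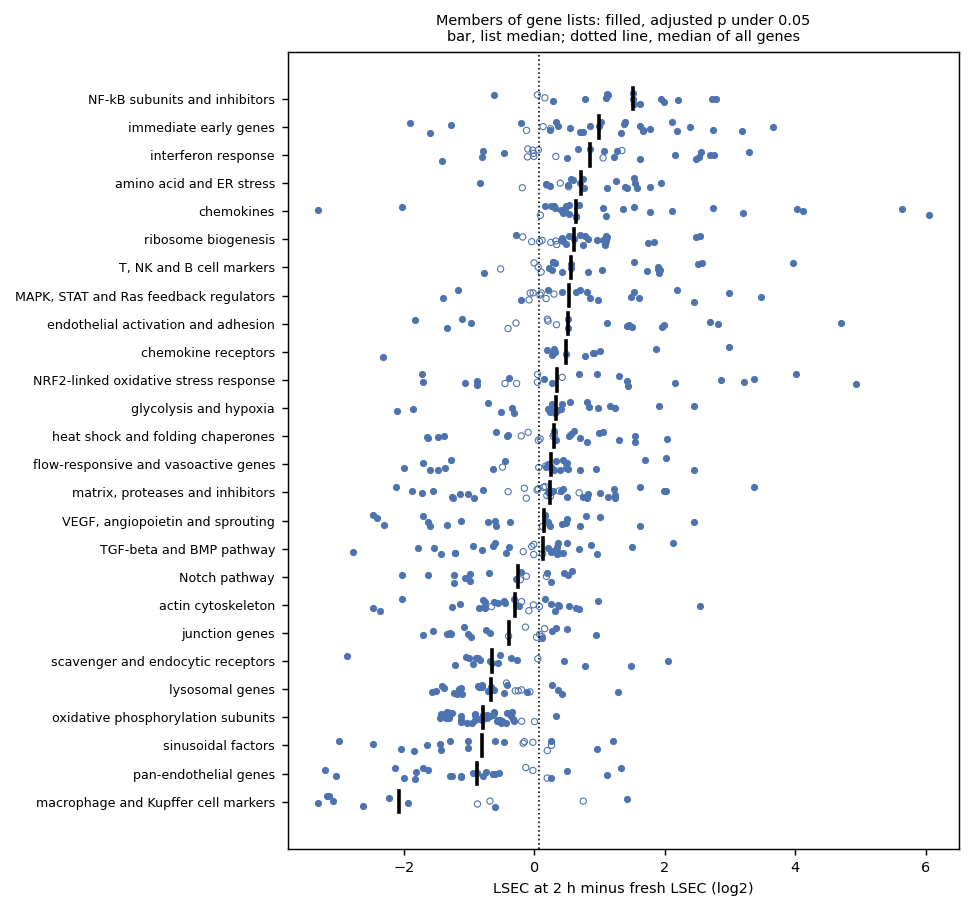
Difference between LSEC at 2 h and fresh LSEC (log2, horizontal axis) for each measured member of 26 gene lists, 1 point per gene, with the median of each list as a vertical bar and the median over all genes as a dotted line. Filled points were called and open points were not. Lists of NF-kB, early and interferon genes lie mostly to the right, and macrophage, pan-endothelial, lysosomal and respiratory chain lists mostly to the left. After scale normalization, not drawn, the medians of the pan-endothelial, lysosomal and respiratory chain lists were -0.05, 0.05 and 0.05. That of the macrophage list was -1.86.

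Metabolic genes moved in both directions. In the list of glycolysis and hypoxia 16 of 22 were higher and 6 lower, 4 and 2 by 2-fold. Pfkfb3, which speeds glycolysis, was 3.78-fold higher, and the vasodilator peptide Adm 5.49-fold. Epas1, which encodes the hypoxia factor HIF-2 alpha of endothelium, fell (difference -2.10, adjusted p = 9.00e-05). Subunits of the respiratory chain were lower in 38 of 41 cases and higher in 1, 13 and 0 by 2-fold, with a median of -0.79, but after scale normalization 14 were lower and 15 higher, so that the direction of the list rests on the scaling. The largest fall among them was that of the ATP synthase subunit Atp5f1c (difference -1.45). Lysosomal genes had 20 of 29 members lower and 4 higher, 9 and 1 by 2-fold, but 4 lower and 11 higher after scale normalization, 1 and 6 by 2-fold. The cathepsins Ctss, Ctsc and Ctsa led the falls (differences -1.57, -1.51 and -1.39), of which Ctss and Ctsa were not called after scale normalization. Genes of the actin cytoskeleton had 17 of 32 members lower and 10 higher, 5 and 1 by 2-fold, but 4 lower and 18 higher after scale normalization, 2 and 9 by 2-fold. Within that list the non-muscle myosin Myh9 measured 7.56, 7.32, 7.43 and 7.28 at 2 h, against 10.17, 9.95, 9.98, 9.33 and 9.94 in fresh cells, 5.57-fold lower, and the actin-binding protein Pfn1 was 5.14-fold lower. Rnd1, a small GTPase that loosens actin fibres, was 5.83-fold higher.

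Genes that define endothelium mostly fell. Of 27 pan-endothelial genes 20 were lower and 4 higher, 12 and 2 by 2-fold, with a median of -0.87. After scale normalization 9 were lower and 6 higher, 5 and 4 by 2-fold. The largest fall was that of Tmem204, a membrane protein of vessels, which measured 8.05, 8.12, 8.62 and 7.47 at 2 h, against 11.45, 11.46, 11.03, 11.32 and 11.10 in fresh cells, 9.24-fold lower (difference -3.21, SE 0.20, adjusted p = 3.56e-07). Sox18, a transcription factor of arteries and lymph vessels, measured 8.07, 8.03, 8.29 and 7.86 at 2 h, against 11.06, 11.16, 11.05, 10.94 and 11.29 in fresh cells, 8.22-fold lower (adjusted p = 9.97e-09). Arrays at 2 h were close together for both genes, and so were the fresh arrays. Mmrn2, a matrix protein of vessels, and Shank3 also fell (differences -2.14 and -1.81), and the angiopoietin receptor Tek averaged 10.47 ± 0.24 at 2 h and 12.10 ± 0.08 in fresh cells (difference -1.63). VE-cadherin fell less (difference -1.29, SE 0.08, adjusted p = 2.84e-07). Neither Tek nor Cdh5 was called after scale normalization. Members that rose included S1pr1, the ETS factor Fli1, 2.17-fold higher, and the junction protein Esam, 1.42-fold higher.

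Genes tied to blood flow went both ways. Of 27 flow-responsive and vasoactive genes 16 were higher and 8 lower, but by 2-fold 3 were higher and 6 lower, and 6 and 2 after scale normalization. Endothelial nitric oxide synthase, Nos3, measured 8.93, 8.49, 8.93 and 8.02 at 2 h, against 10.66, 10.49, 10.24, 10.84 and 10.73 in fresh cells, 4-fold lower (adjusted p = 7.54e-06). The natriuretic peptide receptor Npr1, which relaxes vessels through cyclic GMP, averaged 9.64 ± 0.54 at 2 h and 11.34 ± 0.07 in fresh cells (difference -1.70). In the opposite direction the vasoconstrictor endothelin, Edn1, measured 8.24, 8.40, 8.41 and 8.75 at 2 h, against 6.36, 6.51, 6.42, 6.28 and 6.55 in fresh cells, 4.06-fold higher (adjusted p = 9.80e-08). Gch1, which makes a cofactor of nitric oxide synthase, was 3.24-fold higher. Klf2, as given above, was lower.

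Among sinusoidal transcription and secreted factors 12 of 20 were lower and 3 higher, 10 and 1 by 2-fold. After scale normalization 10 were lower and 6 higher, 6 and 5 by 2-fold. Gata4, the factor that specifies sinusoidal endothelium in mice, measured 8.08, 7.81, 7.95 and 7.61 at 2 h, against 9.88, 9.95, 9.42, 9.31 and 9.96 in fresh cells, 3.59-fold lower (adjusted p = 3.46e-06). Maf, another factor of sinusoids, averaged 7.30 ± 0.16 at 2 h and 9.77 ± 0.24 in fresh cells (difference -2.47). The retinoic acid hydroxylase Cyp26a1 measured 8.03, 7.17, 7.69 and 6.83 at 2 h, against 10.63, 10.43, 9.66, 10.91 and 10.46 in fresh cells, 7.92-fold lower. Pianp, the gene of the junctional protein that the title of the study names, measured 7.995, 7.77, 7.92 and 7.49 at 2 h, against 10.14, 9.83, 9.53, 10.26 and 9.41 in fresh cells, 4.12-fold lower (difference -2.04, SE 0.19, adjusted p = 4.62e-06). None of the arrays at 2 h reached a fresh array for any of these 4 genes. Tfec, a factor of the same list, was 2.3-fold higher.

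Most receptors for uptake differed by less than 2-fold. Of 19 scavenger and endocytic genes 14 were lower and 4 higher, only 4 and 2 by 2-fold, and after scale normalization 6 were lower and 9 higher. Lyve1 and Fcgr2b differed by -0.56 and -0.64, and the lectin Clec4m by -0.84. These 3 were called lower, but after scale normalization Lyve1 and Fcgr2b were called higher and Clec4m was not called. With all 18 arrays in the fit Fcgr2b was not called. Ehd3, which shapes endocytic membranes, fell more than Lyve1, Fcgr2b and Clec4m. It measured 9.16, 8.75, 9.28 and 8.60 at 2 h, against 12.08, 12.07, 11.63, 11.14 and 12.17 in fresh cells, 7.3-fold lower (adjusted p = 1.69e-06). Ehd3 was lower under every scaling tried. The receptors of bacterial products Cd14 and Tlr2 rose (4.14-fold and 2.79-fold), and Tlr4 fell (difference -1.21).

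**Figure D4:**
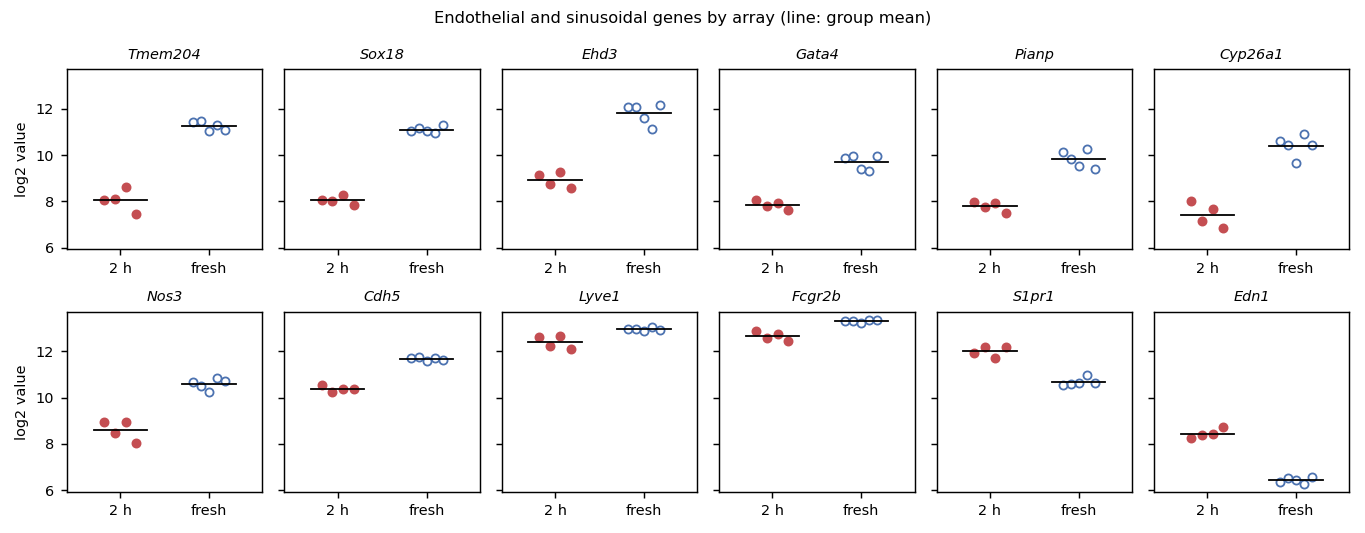
Log2 values of endothelial and sinusoidal genes on each array, LSEC at 2 h (4 arrays, filled) to the left of fresh LSEC (5 arrays, open), with short lines at the group means. Tmem204, Sox18, Ehd3, Gata4, Pianp, Cyp26a1 and Nos3 are lower on every array at 2 h, Lyve1 differs by -0.56, and Edn1 and S1pr1 are higher on every array at 2 h.

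Signals between vessel cells changed in single members. In the Notch pathway 10 of 18 genes were lower and 5 higher, all 5 changes of 2-fold being falls. After scale normalization 6 were lower and 6 higher. The ligand Dll4 averaged 8.03 ± 0.09 at 2 h and 10.07 ± 0.14 in fresh cells (difference -2.03), the receptor Notch1 differed by -1.06, a call lost after scale normalization, and Ncstn, a subunit of the protease that releases the active receptor, by -1.62. Of VEGF and angiopoietin genes 12 of 26 were higher and 12 lower, 3 and 8 by 2-fold, or 3 and 5 after scale normalization. Flt4, the receptor of VEGF-C, and Plxnd1, a semaphorin receptor, fell (differences -2.41 and -2.31), and so did Ramp2, which forms the adrenomedullin receptor, 5.55-fold lower. Its ligand Adm was 5.49-fold higher. In the TGF-beta and BMP pathway 16 of 33 were higher and 12 lower, near the 43.1% and 33.0% of all genes. By 2-fold 2 were higher and 6 lower, or 5 and 3 after scale normalization. Id3, a direct target of BMP signals, measured 9.36, 10.14, 10.20 and 9.99 at 2 h, against 12.73, 12.79, 12.71, 12.49 and 12.76 in fresh cells, 6.85-fold lower. Bmp2 and Tgfb1 fell as well (differences -1.43 and -1.79), while Inhbb, a subunit of activin, was 4.38-fold higher.

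Of 40 matrix genes and their proteases 19 were higher and 10 lower, 9 and 8 by 2-fold, or 12 and 1 after scale normalization. The matrix proteins Sparc and Col4a2 fell (differences -2.12 and -1.87), as did Emilin1 (difference -2.49), while the protease inhibitor Timp1 was 4.05-fold higher. Of 21 junction genes 10 were lower and 5 higher, all 7 changes of 2-fold being falls, but 2 falls and 2 rises after scale normalization and 5 and 1 after quantile normalization. Jup and Nectin2 led the falls (differences -1.70 and -1.54). The adhesion molecule Mcam was 5.64-fold lower. Among regulators of apoptosis, 11 of 24 were higher and 8 lower, near the 43.1% and 33.0% of all genes, with 5 and 3 by 2-fold. The rises of Cflar and Bcl2a1, both inhibitors of cell death, were 3.92-fold and 3.73-fold. In the cell cycle list 15 of 35 were higher and 8 lower, 4 and 2 by 2-fold, with rises about as frequent as the 43.1% among all genes. Cdkn1a, which halts the cycle, was 4.21-fold higher, and Cdk4 and Ccnd1 fell (differences -1.55 and -1.37).

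Markers of other liver cells moved between the groups as well. The mean of 12 macrophage and Kupffer cell markers ranged over 7.49 to 8.0004 on the arrays at 2 h and over 8.29 to 10.59 on the fresh arrays. Of these markers 8 were lower and 1 higher (2 without array 15), 7 and 1 by 2-fold. Clec4f, the lectin of rodent Kupffer cells, measured 7.38, 8.14, 7.67 and 7.18 at 2 h, against 11.18, 10.21, 12.15, 10.42 and 9.43 in fresh cells, 8.47-fold lower (adjusted p = 1.42e-04). The complement genes C1qa, C1qb and C1qc, which macrophages make, were 9.05-fold, 6.18-fold and 8.83-fold lower, and Cd5l, at background at 2 h, at least 5.49-fold lower. Fcna averaged 6.61 ± 0.29 at 2 h and 9.40 ± 1.07 in fresh cells, and no called marker at 2 h except Hmox1 was above its fresh level. Fresh arrays differed more than those at 2 h, with array 15 highest and array 17 lowest, and the parts of cell number and of RNA per cell were not measured.

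Lymphocyte markers were higher at 2 h, with a mean over 24 genes of 7.22 to 7.60 at 2 h and 6.41 to 6.56 in fresh cells, 19 of 24 called higher and 1 lower, 10 of the rises by 2-fold. The members with the largest changes were genes of NK cells and cytotoxic T cells. The granule protease Gzma measured 10.89, 10.59, 10.92 and 9.83 at 2 h, against 6.26, 6.95, 6.77, 6.55 and 6.40 in fresh cells, 15.7-fold higher, and the pore protein Prf1 averaged 9.08 ± 0.48 at 2 h and 6.58 ± 0.17 in fresh cells, 5.67-fold higher. Cd7, Klrb1a and Nkg7 were 5.98-fold, 3.8-fold and 3.73-fold higher, and Klrd1, at background in fresh cells, at least 2.93-fold. The T cell gene Cd3e was at or near background in both groups, and Lck fell (difference -0.77, not called after scale normalization). NK cells are a source of Ccl5, and the part of these cells in the rise of Ccl5 and of interferon gamma targets was not tested.

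Hepatocyte genes varied from array to array. The mean of 25 markers was 6.83, 7.47, 10.11 and 7.40 on arrays 4, 5, 6 and 7 at 2 h, against 8.80, 7.97, 9.56, 9.21 and 7.96 on arrays 13 to 17 of fresh cells. Array 6 at 2 h thus exceeded all fresh arrays and the other arrays at 2 h were below them. Albumin, Alb, measured 8.62, 10.01, 13.04 and 10.19 at 2 h, against 12.33, 11.71, 12.66, 12.62 and 11.59 in fresh cells, and the groups overlapped (difference -1.72, SE 0.71, adjusted p = 0.0458). The call of Alb was lost without any 1 of arrays 4, 5, 7, 13, 14, 15 and 16, with adjusted p of 0.0541 to 0.14. With all arrays 1 marker was called lower and 0 higher, none without any 1 of arrays 4, 5, 7, 13, 15 and 16 and 2 lower without array 17. Without array 6 and the fresh array with the highest hepatocyte mean, array 15, 17 were lower, and without array 6 alone 19. Markers of stellate and mesenchymal cells were called higher in 14 of 20 cases and lower in 1, but only 2 by 2-fold, and 6 were higher and 2 lower after quantile normalization. Their mean ranged over 6.96 to 7.64 at 2 h and 6.56 to 6.90 in fresh cells. Col1a1 averaged 7.20 ± 0.49 at 2 h and 6.45 ± 0.19 in fresh cells, and Mgp was 3.09-fold higher. Neutrophil markers, 7 of 9 higher and 1 by 2-fold, were all at background in fresh cells among those called. After scale normalization 4 were higher and 2 lower. Mmp9 was at least 2.06-fold higher.

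**Figure D5:**
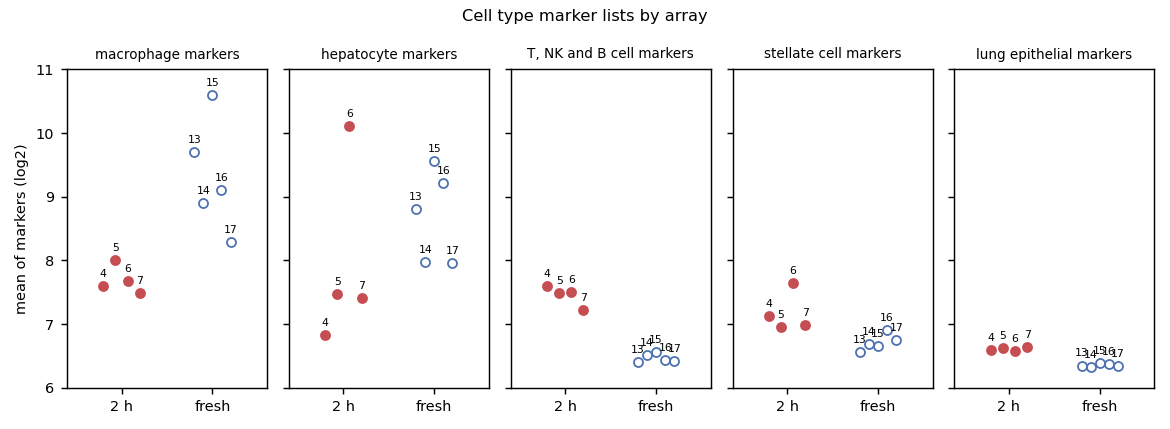
Mean log2 level of 5 lists of cell type markers on each array (vertical axis), LSEC at 2 h (filled) to the left of fresh LSEC (open), with array numbers beside the points. Macrophage markers are lower on every array at 2 h, lymphocyte and stellate markers higher, hepatocyte markers overlap, with array 6 above all others, and lung epithelial markers lie at 6.57 to 6.64 at 2 h and 6.33 to 6.38 in fresh cells.

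The 42 h arrays show the later level of the same genes. They share the arrays at 2 h with the comparison above, so that the values are set side by side and no relation between the 2 changes is drawn. Between 42 h and 2 h 72.1% of all genes were called. The distance between the quartiles was 1.93 ± 0.053 at 42 h and 1.49 ± 0.064 at 2 h, so the arrays at 2 h were narrower than both other groups. The part of this difference in the courses below was not tested. In the order fresh, 2 h and 42 h, Cxcl11 averaged 6.86 ± 0.23, 12.91 ± 0.17 and 6.42 ± 0.06. Its level at 42 h was below that of fresh cells. Cxcl10 averaged 9.09 ± 0.88, 13.22 ± 0.16 and 7.18 ± 0.45, and Vcam1 averaged 9.19 ± 0.24, 11.89 ± 0.27 and 7.89 ± 0.27. Rsad2 averaged 9.95 ± 0.73, 12.44 ± 0.19 and 7.72 ± 0.24. All 4 were highest at 2 h and lowest at 42 h. Other genes were still high at 42 h: Cxcl1 averaged 9.18 ± 0.30, 13.20 ± 0.07 and 11.93 ± 0.55, Myc averaged 6.62 ± 0.31, 10.28 ± 0.44 and 9.94 ± 0.55, and Sod2 averaged 8.93 ± 0.35, 12.30 ± 0.10 and 12.24 ± 0.29. Akr1b8 was higher still, with 7.25 ± 0.68, 12.17 ± 1.02 and 13.05 ± 0.27.

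Genes that fell also took different courses. Sox18 averaged 11.10 ± 0.13 in fresh cells, 8.06 ± 0.18 at 2 h and 11.07 ± 0.91 at 42 h, close to its fresh mean. Tek averaged 12.10 ± 0.08, 10.47 ± 0.24 and 11.51 ± 0.15, and Cdh5 averaged 11.68 ± 0.07, 10.39 ± 0.12 and 11.30 ± 0.38, both at 42 h between their other levels. Their falls at 2 h were not called after scale normalization, as given above. Lyve1 at 42 h averaged 12.90 ± 0.14, against 12.98 ± 0.06 in fresh cells. Of the sinusoidal genes Gata4, Pianp and Cyp26a1 all had their lowest mean at 42 h. Gata4 averaged 9.70 ± 0.31, 7.86 ± 0.20 and 7.54 ± 0.02, Pianp averaged 9.83 ± 0.37, 7.79 ± 0.22 and 7.22 ± 0.08, and Cyp26a1 averaged 10.42 ± 0.47, 7.43 ± 0.53 and 6.08 ± 0.09. Clec4m, still bright at 2 h (9.66 ± 0.22), averaged 6.82 ± 0.51 at 42 h and was 7.12-fold higher at 2 h than at 42 h (adjusted p = 7.72e-09). Nos3 averaged 10.59 ± 0.23, 8.59 ± 0.44 and 8.61 ± 0.42, and Klf2 9.72 ± 0.32, 8.12 ± 0.26 and 6.68 ± 0.06. The Kupffer cell gene Clec4f averaged 10.68 ± 1.03, 7.60 ± 0.42 and 6.73 ± 0.04, and Gzma 6.59 ± 0.28, 10.55 ± 0.51 and 6.20 ± 0.06, near background at 42 h.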

How the data were processed

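Biotin-labelled RNA of rat LSEC was hybridised to Affymetrix arrays, per the labels' protocols. The deposited table holds 1 log2 value per probe set and array. How the authors corrected, normalized and summarised it is not given in the sources used here; array medians are nearly equal. Of 11484 probe sets, 57 were controls, and 11018 of the 11427 gene probe sets carried 1 symbol in the platform annotation, 0 carried several and 409 none. These 11018 genes of the 4 arrays at 2 h and 5 fresh arrays were fitted with limma 3.58.1 in R 4.3.3 (lmFit, eBayes with an intensity trend), with Benjamini-Hochberg adjustment over all of them and a threshold of 0.05. Precision is limited by the 9 arrays.

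Groups came from the sample titles. The alternatives were quantile and scale normalization, the genes above the median of all gene probe sets in at least 4 arrays, all 18 arrays in the fit, no trend, array weights, a test against a 1.5-fold change, an exact permutation test per gene, all gene probe sets, and each array left out. Background was the highest fresh mean of 24 absent bacterial poly-A control probe sets (6.26). A gene at or below it in 1 group has its fold as a lower bound against, on each array, the higher of that level and its own value. Tested on simulated data (10 sets of 11018 genes with 200 changed), the fit recovered 93.8% of 2-fold and 98.3% of 4-fold changes, with 4.99% of its calls false. The simulated arrays had independent noise and no difference in spread between the groups. In the real data 76.1% of genes were called, so these rates check the code and do not give the share of false calls here.

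Gene lists and their members were chosen with earlier results of these data known. The genes named are the 20 largest rises and 20 largest falls without overlap between groups whose higher mean exceeded 7.15, the median of all gene probe sets, the 6 called members of a list with the largest change and up to 3 against its majority, a short set of markers and, for cell type lists, the members highest in fresh cells. Motifs and promoters were chosen after the values were seen. Promoter windows (GRCr8, RefSeq) were matched by gene ID for 9060 genes, and motifs were searched on both strands.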

Additional observations from a re-analysis of the deposited data

Results flagged for a closer look

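Among 390 groups of values checked, 1 array stood apart from the rest of its group, by a gap that was large for the range of the group, in 30. Chance would give about 1 in 20 such groups, or 19.5 here, if they were independent. The groups share the same 9 arrays and were not picked at random, so an excess was not tested. Array 4 of the 2 h cells was high in its log2 value for Vcam1 (12.29). Array 4 of the 2 h cells was low in its log2 value for F3 (7.20). Array 5 of the 2 h cells was high in its log2 value for Fcna (7.03). Array 5 of the 2 h cells was low in its log2 value for Canx (8.03). Array 6 of the 2 h cells was high in its log2 value for Klf10 (8.36) and cholangiocyte and other epithelial markers (6.44). Array 6 of the 2 h cells was low in its log2 value for Litaf (12.10) and Timp1 (11.16). Array 7 of the 2 h cells was high in its log2 value for Gbp2 (11.38). Array 7 of the 2 h cells was low in its log2 value for Cxcl1 (13.09), Dusp2 (8.13), Klrb1a (7.85) and Klrd1 (7.49). Array 14 of the fresh cells was low in its log2 value for Gadd45b (8.94). Array 15 of the fresh cells was high in its log2 value for Ccrl2 (8.32), Ctsc (10.15), Dusp2 (6.65), Gch1 (7.21) and Sod2 (9.53). Array 15 of the fresh cells was low in its log2 value for Emilin1 (10.94) and Sgpp1 (10.05). Array 16 of the fresh cells was high in its log2 value for Ddit3 (9.09), Nop58 (8.60) and S1pr1 (10.99). Array 16 of the fresh cells was low in its log2 value for Adm (7.58), Id3 (12.49), Myh9 (9.33) and Ripk1 (7.97). Array 17 of the fresh cells was high in its log2 value for Akr1b8 (8.44) and Cflar (7.53).

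The bacterial poly-A control probe sets, which no comparison of genes uses, averaged 8.06 on the arrays at 2 h, above their mean of 5.73 on the fresh arrays. The 5S ribosomal RNA control probe set averaged 9.61 at 2 h and 7.69 in fresh cells. The part of either difference in the gene results was not tested.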

How the results depend on the processing

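Counts over all genes kept within 1.5 times under quantile normalization, a fit without the intensity trend, array weights, all 18 arrays in the fit, all gene probe sets, the exact permutation test per gene and the fit without arrays 6 and 15. Beyond that, scale normalization gave 1158 genes at least 2-fold higher and 317 lower, against 626 and 795. It stretched the arrays at 2 h by 1.10 to 1.24 times, so that their brightest genes came to 14.28 to 15.18, against 12.58 to 12.87 on fresh arrays. Without dim genes 6082 were tested, 4763 called and 1652 higher, with fewer genes by construction. A test against a 1.5-fold change called 1798, 738 higher and 1060 lower. The share of higher calls was 56.6%, 49.2% after quantile normalization, 55.7% after scaling and 34.7% without dim genes. Leaving out 1 array gave 8050 to 8483 called genes, 4522 to 4835 higher and 3515 to 3648 lower, with 613 to 669 at least 2-fold higher and 715 to 889 lower. Called list members were 688 to 738, against 721. The difference in spread was -0.46 to -0.41, and that of Actb 0.61 to 0.70. Scale normalization turned Clec4m (0.11), Fcgr2b (1.22), Il1a (0.70), Lyve1 (1.21) and Sftpc (-0.00298), and quantile normalization turned Sftpc (-0.02075). Of 187 genes named, scale normalization also ended the calls of 11 (Alb, Cd3e, Cdh5, Ctsa, Ctss, Gpx3, Lck, Notch1, Psmb8, Tek and Tnfrsf1a), all 18 arrays in the fit those of 4 (Cd3e, Fcgr2b, Il1a and Sftpc), and the test against a 1.5-fold change those of 23. Calls were ended for 1 gene each by the fit without the intensity trend and the permutation test. The cause was not tested. No paired analysis was possible because the groups share no replicate numbers. All values at 2 h above about 13 are near the top of the scale.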

Other observations

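Some gene lists not described above moved little or both ways. Of 18 genes of cholesterol synthesis and uptake 7 were higher and 5 lower (9 lower without array 6), 1 and 2 by 2-fold. Idi1, an isomerase early in the pathway, averaged 9.61 ± 0.20 at 2 h and 7.52 ± 0.19 in fresh cells, 4.27-fold higher, while the later enzyme Msmo1 averaged 7.19 ± 0.46 at 2 h and 8.30 ± 0.15 in fresh cells and Abcg1, which exports cholesterol, fell (difference -1.002). Of 30 proteasome subunits 12 were higher and 10 lower, none by 2-fold, and 22 were higher and 0 lower after scale normalization. Genes of antigen presentation were higher in 6 of 22 cases and lower in 6 (3 lower without array 5), 1 and 2 by 2-fold, and 8 and 1 after scale normalization, 4 and 0 by 2-fold. The peptide transporter Tap1 was 3.09-fold higher, and RT1-DMb, which loads class II molecules, fell (difference -1.10).

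Integrins and linked genes were higher in 9 of 26 cases and lower in 8, 2 and 4 by 2-fold. The counts were 7 and 10 after quantile normalization and 12 and 7 after scale normalization, where 5 and 1 reached 2-fold. The fibronectin receptor chain Itga5 fell (difference -1.63), as did the linker Tln1 (difference -1.37), while the hyaluronan receptor Cd44 was 2.25-fold higher. Of 11 cholangiocyte and other epithelial markers 4 were higher and 1 lower, with Cdh1 as the member that fell and the only one changed by 2-fold. The direction of the list turned with the scaling, with 3 higher and 5 lower after quantile normalization and 2 and 5 after scale normalization. Cdh1 averaged 6.29 ± 0.37 at 2 h and 8.02 ± 0.99 in fresh cells. Erythroid and platelet markers were higher in 6 of 11 cases and lower in 2, none by 2-fold, or 3 and 3 after quantile normalization. Polyamine genes were higher in 5 of 9 cases and lower in 2 (1 without array 7), 3 and 0 by 2-fold, and prostanoid genes in 6 and 5 of 15 (3 lower without any 1 of arrays 5, 7, 13 and 15, and 4 and 5 after quantile or scale normalization), 2 and 1 by 2-fold.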
